A study of Sus scrofa with 2 samples.

Results

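Interferon gamma and its signaling chain were examined in 2 pigs of the Yorkshire breed, whose endometrium was taken on day 18 of pregnancy (YK18). The chain was taken as 9 genes, namely the ligand IFNG, the receptor genes IFNGR1 and IFNGR2, the kinase genes JAK1 and JAK2, and the response genes IRF1, SOCS1, CXCL9 and CXCL10. Each gene was found through the RefSeq accessions that the Sscrofa11.1 annotation gives to its symbol, with the version number ignored, and the rows of a gene were summed. Of the 9 genes, 8 had at least 1 row among the 11071 genes matched in this way, and 7 were above 0 in both libraries. No row was matched to IFNGR2. The set was selected on the measured RPKM of IFNG, which differed between the 2 libraries, so the values of IFNG are given as a description with no test.

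Both pigs were inseminated Yorkshire sows from 1 commercial herd, slaughtered on the same day of pregnancy. The uterine horns were flushed with saline after slaughter. Each gave 1 RNA-seq library from whole endometrium. The 2 libraries are replicates of 1 condition, no untreated, nonpregnant or other-day library was analysed here, and every comparison below is between 2 pigs. The deposited values are RPKM that the authors made from HTSeq counts, that is, reads divided by a length and by the size of the library. The lengths used are not given.

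Interferon gamma is the only type II interferon. It binds a receptor made of IFNGR1 and IFNGR2 chains, to which the tyrosine kinases JAK1 and JAK2 are attached, and signaling from this complex switches on genes such as the transcription factor gene IRF1. Among the later targets are the chemokines CXCL9 and CXCL10, which attract lymphocytes through the receptor CXCR3, and SOCS1, which inhibits the kinases and so closes a feedback loop. T cells and natural killer cells are the usual sources of the protein, and in the pig the trophectoderm of the elongated conceptus also secretes it while it attaches to the uterus.

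Reads were recovered from the steps of the RPKM values, which gave 7466979 reads as the total of replicate 1 and 7023108 as that of replicate 2. The epithelial markers EPCAM, at 5106 and 5128 RPKM, and CDH1, at 4834 and 3961 RPKM, and the stromal markers LUM, at 2122 and 1224 RPKM, and DCN, at 211.0 and 272.5 RPKM, were present in both libraries. Some genes are listed at 0 where other genes of the same cells are high. The epithelial keratin gene KRT8 is listed at 0 in both libraries, while its partner KRT18 was at 1626 and 1064 RPKM. Of all matched genes 26.6% are listed at 0 in both libraries, so a gene at 0 is described only as listed at 0. Replicate 1 also held more reads of skeletal muscle genes, a marker list put together once such genes were known to differ. Of the 10 genes, 6 had a mean of at least 1 RPKM and all 6 were higher in replicate 1. The 10 genes had 408 reads in replicate 1 and 9 reads in replicate 2, with MYL2, TNNT1 and TNNT3 listed at 0, and their part in the results below was not tested.

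IFNG was the member that differed most between the pigs. It was at 681.6 (replicate 1) and 89.1 RPKM (replicate 2), from 911 and 112 reads. Replicate 1 was the high library, by 7.65-fold. Over the 2 pigs IFNG averaged 385 ± 419 RPKM (SD, n = 2), and the spread between the pigs was larger than the mean itself. In the order of matched genes by level, IFNG stood at place 732 in replicate 1 and at place 2715 in replicate 2. In bulk tissue, more cells that express IFNG and more IFNG RNA per cell cannot be told apart.

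Ratios between the libraries were taken as log2(RPKM + 1) of replicate 2 minus that of replicate 1, so that a negative value is a higher level in replicate 1. IFNG had a log2 ratio of -2.92. The median over the 6476 genes with a mean of at least 1 RPKM was 0.07, with an SD of 0.67. In the plot of the ratio against the mean level, IFNG lies far below the other members.

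**Figure D1:**
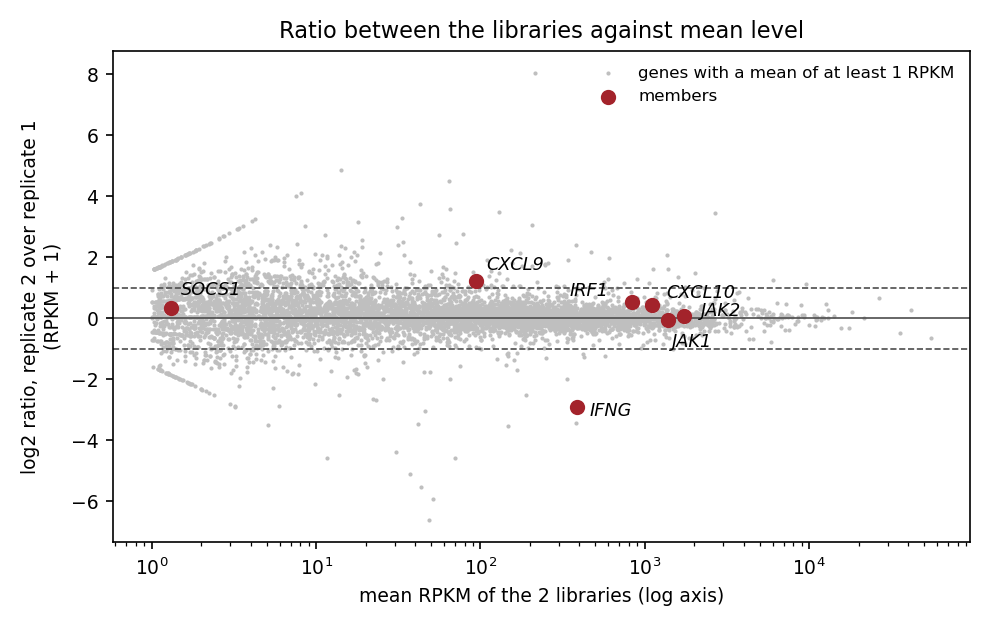
The log2(RPKM + 1) of replicate 2 minus that of replicate 1 is plotted against the mean RPKM of the 2 libraries (log axis) for the 6476 genes with a mean of at least 1 RPKM (grey) and the 7 members among them (red). Dashed lines mark a 2-fold difference, and IFNG, at -2.92, lies below the lower line while CXCL9, at 1.23, lies above the upper line.

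The receptor chains could not be followed. IFNGR1, the ligand-binding chain, has 2 rows and both are listed at 0 in both libraries. IFNGR2, the second chain, had no matched row, so the table gives no level of the receptor of IFNG in either pig.

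The kinase genes were at like levels in the 2 pigs. JAK1, the kinase carried by IFNGR1, was at 1409 (replicate 1) and 1354 RPKM (replicate 2), from 1115 and 1008 reads. JAK2, the kinase carried by IFNGR2, was at 1675 (replicate 1) and 1777 RPKM (replicate 2), from 888 and 886 reads. Replicate 1 was the higher library for JAK1 and the lower one for JAK2, both by little. The ratio of replicate 2 to replicate 1 was 0.961 (95% exact binomial interval 0.882 to 1.05) for JAK1 and 1.06 (0.965 to 1.17) for JAK2. These intervals and those that follow cover only the counting error of independent reads. Reads copied by PCR are not independent, which would make the intervals too narrow. They also say nothing of how much pigs vary. The intervals of JAK1 and JAK2 both include 1, and neither reaches a 1.5-fold difference in either direction. Both kinases also serve other cytokine receptors, so their level is not particular to IFNG.

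Of the 4 response genes, IRF1, CXCL9 and CXCL10 were higher in replicate 2, the library with less IFNG. IRF1, the first transcription factor of the response, was at 685 (replicate 1) and 984 RPKM (replicate 2), from 1059 and 1430 reads. CXCL10, a lymphocyte-attracting chemokine, was at 935 (replicate 1) and 1276 RPKM (replicate 2), from 1968 and 2527 reads. CXCL9, a chemokine that depends on IFNG more closely than CXCL10 does, was at 55.7 (replicate 1) and 132.3 RPKM (replicate 2), from 47 and 105 reads. For all 3 genes replicate 2 was the high library, whereas for IFNG it was the low one.

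The ratio of replicate 2 to replicate 1 was 1.44 (95% exact binomial interval 1.33 to 1.56) for IRF1. It was 1.37 (1.29 to 1.45) for CXCL10 and 2.38 (1.67 to 3.43) for CXCL9. All 3 intervals lie above 1, so these differences were larger than the counting error of independent reads. Whether they exceed the usual spread between pigs cannot be told from 2 animals. Set against the ligand, CXCL10 was at 1.37 times the RPKM of IFNG in replicate 1 and at 14.3 times in replicate 2. The size of both figures depends on the lengths by which the authors divided.

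SOCS1, the feedback inhibitor, was too low to follow. Of its 3 rows 1 is listed at 0 in both libraries, and the other two had 3 and 2 reads in replicate 1 and 6 and 1 reads in replicate 2. Summed, the gene was at 1.03 (replicate 1) and 1.57 RPKM (replicate 2), from 5 and 7 reads. The ratio of its reads, scaled by the library totals, had an interval of 0.407 to 5.95, so no difference was detectable at this depth.

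**Figure D2:**
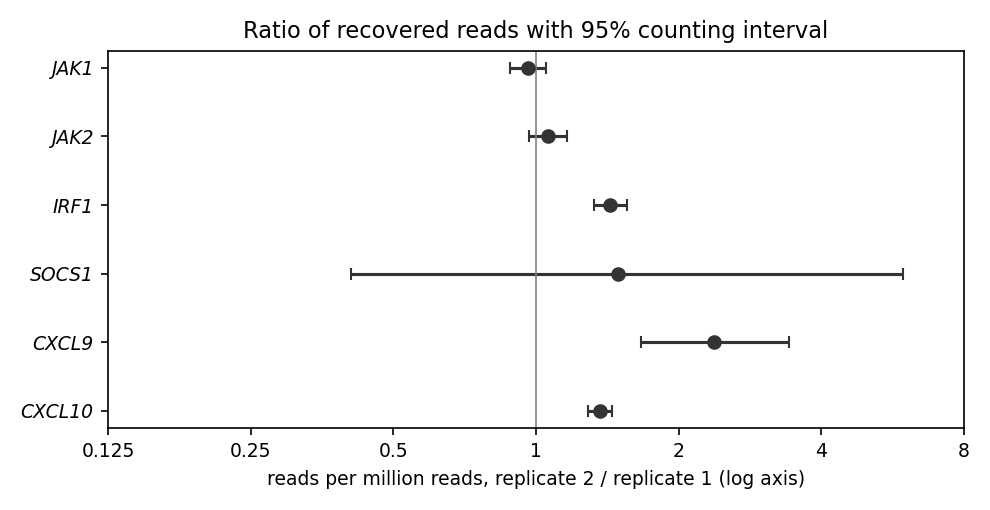
Ratio of recovered reads, scaled by the library totals, replicate 2 over replicate 1 (log axis), for the 6 members above 0 other than IFNG. Points are the ratios and bars are 95% exact binomial intervals that cover only the counting error of independent reads. The bars of JAK1, JAK2 and SOCS1 cross 1, and those of IRF1, CXCL9 and CXCL10 lie to the right of 1.

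Counted together, 0 of the 6 other members with a mean of at least 1 RPKM were at least 2-fold higher in replicate 1, as IFNG was, beside 3.17% of the 6476 genes. CXCL9 was the 1 member at least 2-fold higher in replicate 2, beside 7.49% of all genes. The remaining 5 members differed by less than 2-fold. The median log2 ratio of the 6 members was 0.39, from -0.06 to 1.23, against 0.07 for all genes. With 6 genes, these counts lie near the background of all genes and single out nothing. Among genes with at least 100 reads over both libraries, a filter chosen after seeing the data that leaves 5 of these members, 0 were at least 2-fold higher in replicate 1 and 1 in replicate 2, beside 0.824% and 2.66% of 3762 genes, or 3.48% in either direction.

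By level per length, JAK2 had the highest mean, at 1726 ± 72.0 RPKM (SD, n = 2), followed by JAK1 at 1381 ± 38.7 RPKM (SD, n = 2). CXCL10 came next at 1105 ± 241.3 RPKM (SD, n = 2) and then IRF1 at 834 ± 211.1 RPKM (SD, n = 2). IFNG, CXCL9 at 94.0 ± 54.2 RPKM (SD, n = 2) and SOCS1 at 1.30 ± 0.383 RPKM (SD, n = 2) followed in this order. CXCL10 was above IRF1 in each pig, while IFNG was above CXCL9 in replicate 1 and below it in replicate 2. In replicate 1 IFNG, at 681.6 RPKM, was level with IRF1, at 685 RPKM, while in replicate 2 IRF1 was far above it. The order depends on the lengths by which the authors divided. The smallest lengths that give whole reads ran from 71 nt for JAK2 and 106 nt for JAK1 to 282 nt for CXCL10 and 687 nt for a row of SOCS1, and each may be a divisor of the true length.

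**Figure D3:**
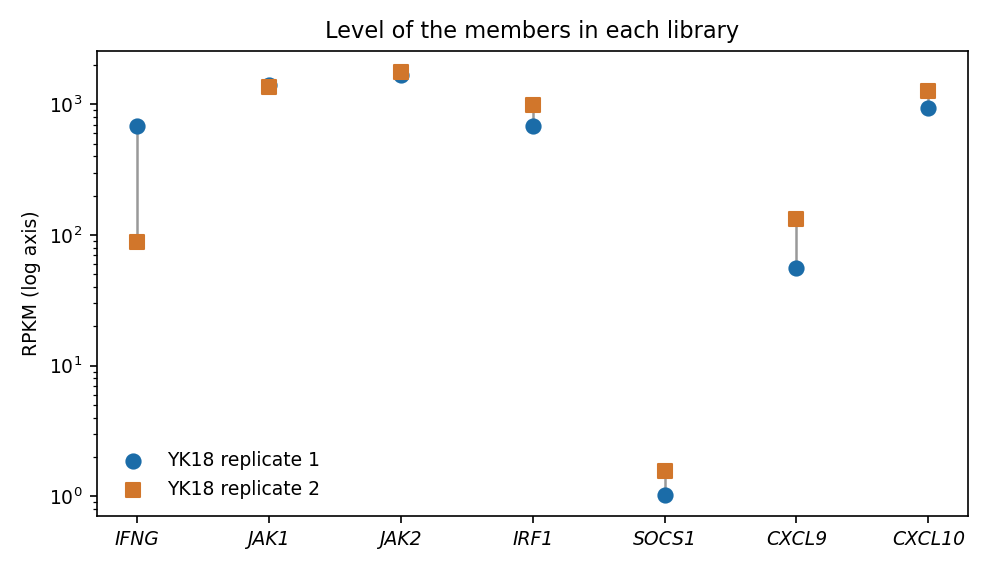
RPKM (log axis) of the 7 members above 0 in YK18 replicate 1 (blue circles) and replicate 2 (orange squares), with a line joining the 2 values of a gene. The line of IFNG runs from 681.6 down to 89.1 RPKM, whereas IRF1, SOCS1, CXCL9 and CXCL10 have the orange square on top and the symbols of JAK1 and JAK2 overlap.

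In a wider list of 13 genes close to the receptor, 9 had a mean of at least 1 RPKM, 1 was listed at 0 and 3 had no matched row. None of the 9 was 2-fold different in either direction, beside 10.7% of all genes, so with 9 genes this count singles out nothing. Their median log2 ratio was 0.02, from -0.62 for TYK2, a kinase of the type I interferon receptor, to 0.50 for IRF2, a relative of IRF1. TYK2 was at 5.88 and 3.48 RPKM, from 9 and 5 reads, and IRF2 at 42.4 and 60.2 RPKM, from 78 and 104 reads. STAT2 was at 3730 and 3299 RPKM and IRF9 at 725 and 664 RPKM, and both act downstream of type I interferons. Among the inhibitors, PIAS1 was at 370.5 and 350.4 RPKM and SOCS3 at 9.08 and 11.1 RPKM.

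Of 18 further targets of interferon gamma, 7 had a mean of at least 1 RPKM, 8 were listed at 0 in both libraries and 3 had no matched row. None of the 7 was 2-fold higher in replicate 1, and 2 were at least 2-fold higher in replicate 2, beside 3.17% and 7.49% of all genes. IRF8, a transcription factor of myeloid and B cells, was at 68.9 (replicate 1) and 242.3 RPKM (replicate 2), from 88 and 291 reads. ICAM1, an adhesion molecule for leukocytes, was at 15.8 and 34.8 RPKM, from 41 and 85 reads. The other genes with higher levels were closer to equal. NLRC5, an activator of MHC class I genes, was at 506.4 and 542.0 RPKM, and PSMB10, a subunit of the immunoproteasome, was at 492.3 and 499.0 RPKM. The median log2 ratio of the 7 targets was 0.53, against 0.07 for all genes. This median is the value of B2M, from 41 and 56 reads. The interval of its ratio of replicate 2 to replicate 1, 0.953 to 2.23, includes 1. The genes listed at 0 were CXCL11, GBP1, GBP2, IDO1, TAP1, PSMB8, PSMB9 and FCGR1A, so several of the best-known targets gave no value.

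Genes that drive the making of IFNG in lymphocytes were mostly low. Of 12 such genes, 7 had a mean of at least 1 RPKM, 4 were listed at 0 and 1 had no matched row. IL18RAP, a chain of the receptor of interleukin 18, was the 1 gene at least 2-fold higher in replicate 1, at 11.6 (replicate 1) and 2.60 RPKM (replicate 2), from 19 and 4 reads. IL12B, a subunit of interleukin 12, was the 1 gene at least 2-fold higher in replicate 2, at 0.460 and 3.43 RPKM, from 1 and 7 reads. IL18R1, the other chain of this receptor, was at 87.4 and 62.1 RPKM, from 169 and 113 reads. STAT4, which transmits the signal of interleukin 12, was at 31.6 and 34.9 RPKM, and IL2RG, a chain shared by several interleukin receptors, was at 84.4 and 96.0 RPKM. IL18, IL12RB1, IL12RB2 and EOMES are listed at 0. Over the 3 lists, 1 of 23 genes was at least 2-fold higher in replicate 1 and 3 were at least 2-fold higher in replicate 2, again beside 3.17% and 7.49% of all genes.

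**Figure D4:**
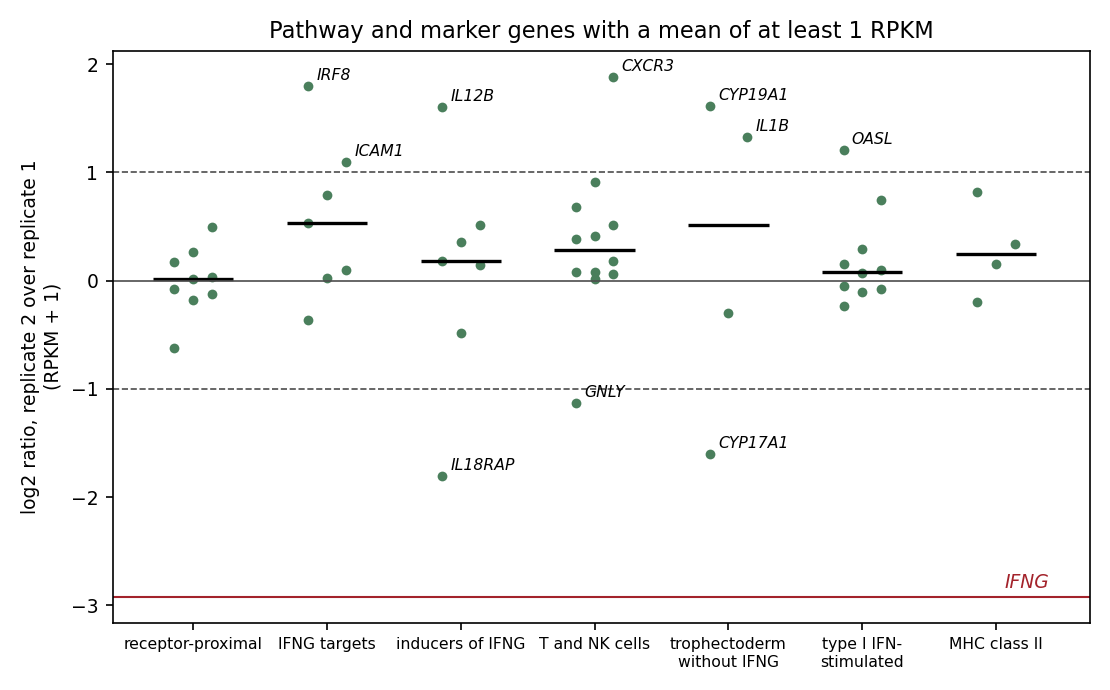
Difference in log2(RPKM + 1), replicate 2 minus replicate 1, for genes with a mean of at least 1 RPKM in the 3 pathway lists and the lists of T and natural killer cells, trophectoderm, type I interferon-stimulated genes and MHC class II, with 1 point per gene and a black bar at the median of a list. The red line marks IFNG at -2.92, and the lowest point drawn is IL18RAP at -1.81. The skeletal muscle list is not drawn, and 5 of its genes lie below IFNG, from MYLPF at -3.46 to TNNC1 at -6.61. Of the 6476 genes with a mean of at least 1 RPKM, 0.2% lie as low as IFNG or lower, IFNG included.

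Markers of cells that make IFNG are given beside it, and their part in its difference was not tested. The list of T cell and natural killer cell genes held 20 symbols for 21 annotated genes, because GZMA is given to 2 genes. Of these, 12 had a mean of at least 1 RPKM, 2 were lower and 7 were listed at 0. Of the 12, 11 had a log2 ratio above 0, from 0.02 to 1.88, as had 3759 of the 6476 genes. The list summed to 1311 (replicate 1) and 1696 RPKM (replicate 2). GNLY, the gene of the cytotoxic protein granulysin, was the exception, at 228.6 (replicate 1) and 103.6 RPKM (replicate 2), from 169 and 72 reads. It was the 1 gene of the 12 at least 2-fold higher in replicate 1, beside 3.17% of all genes. PTPRC, the pan-leukocyte marker CD45, was at 526.1 and 845.5 RPKM, and CD2, an adhesion molecule of T and natural killer cells, was at 275.0 and 365.3 RPKM. Most of the difference between the sums of the list came from PTPRC, which is not particular to T and natural killer cells. The sums are therefore no measure of these cells. CXCR3, the receptor of CXCL9 and CXCL10, was at 1.33 and 7.58 RPKM, from 8 and 43 reads, and so was higher in the same library as its ligands. It was the 1 gene of the 12 at least 2-fold higher in replicate 2, beside 7.49% of all genes. Near-equal reads were found for NKG7 (56 and 55), PRF1 (25 and 27), KLRK1 (11 and 11) and KLRD1 (9 and 9). The defining T cell genes CD3D, CD3G, CD4 and CD8A are listed at 0, as are NCR1, GZMH and 1 of the genes named GZMA, while CD3E was at 67.5 and 127.8 RPKM.

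The list of trophectoderm genes held 11 genes without IFNG, of which 4 had a mean of at least 1 RPKM, 1 was lower, 3 were listed at 0 and 3 had no matched symbol or row. The list summed to 53.4 (replicate 1) and 35.5 RPKM (replicate 2), and the higher sum in replicate 1 rests on 1 gene, CYP17A1. CYP17A1, an enzyme of androgen synthesis on the way to estrogen, was at 31.2 (replicate 1) and 9.59 RPKM (replicate 2), from 45 and 13 reads. It was the 1 gene of the 4 at least 2-fold higher in replicate 1, beside 3.17% of all genes. IL1B and CYP19A1, both from few reads, were the 2 genes of the 4 at least 2-fold higher in replicate 2, beside 7.49% of all genes. TFAP2C, a transcription factor of trophoblast and other epithelia, was at 17.5 and 14.1 RPKM. IL1B, the gene of an interleukin, was at 3.20 and 9.54 RPKM, from 5 and 14 reads, and was thus higher in the other library. CYP19A1, 1 of the aromatase genes of the pig, had 0 reads in replicate 1 and 3 in replicate 2. CYP19A2, another of them that was not in the list, had 2 and 5 reads. The trophoblast factor CDX2 had 7 reads in replicate 1 and 1 in replicate 2. ELF5, GATA3 and HAND1 are listed at 0 in both libraries.

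The 5 genes with a mean of at least 5 RPKM whose log2 ratio was nearest to that of IFNG were LOC100625207 at -2.88, KERA at -3.05, FMO1 at -2.68, MYL3 at -2.66 and PLET1 at -2.53. The likeness is the difference of a single ratio over 2 libraries. KERA, the gene of the matrix protein keratocan, had 300 reads in replicate 1 and 31 in replicate 2. PLET1, a surface protein first found in placenta, was nearest to IFNG in level, at 322.1 (replicate 1) and 55.0 RPKM (replicate 2), from 392 and 63 reads. FMO1, a flavin monooxygenase, had 70 and 9 reads, MYL3, a myosin light chain, had 31 and 4 reads, and LOC100625207 had 18 and 1 reads.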

How the data were processed

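Each of the 2 YK18 libraries came from total RNA of 1 pig (TRIzol). RPKM values were deposited by the authors, 1 column per library, from counts made with HTSeq 0.6.1. Aligner, genome build and filters are not given in the sources used here, so no gene positions are given. Symbols came from RefSeq Sscrofa11.1, which matched 16072 of 38222 mRNA accessions (42.0%) with versions ignored. Reads were recovered as the smallest length up to 20000 nt at which both libraries gave whole reads, so true reads may be whole multiples, in which case intervals are too wide. The recovery of totals and lengths was checked on simulated data. The simulated lengths were all longer than those recovered for JAK2, JAK1 and CXCL9, so the check did not cover lengths as short as these. Differences were taken on the log2(RPKM + 1) scale, over genes with a mean of at least 1 RPKM, with a 2-fold threshold. No test between conditions exists with 1 condition, and no p-value is given. Exact binomial intervals compare 2 libraries, not conditions, and are too narrow where reads are PCR copies. Python 3.11.15, pandas 2.3.3, numpy 2.4.6, scipy 1.17.1 and matplotlib 3.10.9 were used.

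The members and lists were chosen with earlier results of these data known. The rule for named genes covered all members, list genes at least 2-fold different with at least 10 reads in 1 library, the 3 highest genes of a list (1 of which is not reported here), and the 5 genes nearest to IFNG in ratio. Further genes were picked with their values in view, and the lists of muscle, interferon ligands, type I interferon-stimulated genes, MHC class II and macrophages were added then. Alternatives were pseudocounts of 0.1 and 0.01, other filters, rescaling of the libraries, the highest row of a gene, accessions with version, recovered reads and other fold thresholds.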

Additional observations from a re-analysis of the deposited data

How the results depend on the processing

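No paired analysis was possible because there is a single condition, with 1 library from each of 2 pigs. The log2 ratio of IFNG, the gene on which the set was selected, ran from -3.01 to -2.86 over 11 alternatives. The filters and the rules for rows could not change it, since IFNG has 1 row and passes each filter. The count of 0 other members at least 2-fold higher in replicate 1 was 0 under all 13 alternatives. The median log2 ratio of these members, 0.39, ran from 0.30 to 0.49. The mean of IFNG, 385 RPKM, was from 89.1 to 681.6 RPKM with 1 pig left out, so each pig decides it, and was 90.1 when both columns were scaled to sum to 1000000, which lowers every level. JAK2 changed sign under rescaling by the median ratio, at -0.003, and the direction of JAK1 and JAK2 is therefore not to be read. The other single members kept their sign under the pseudocounts and rescalings, and CXCL10 was at 0.36 with the median ratio.

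The counts of 1 in the wider lists rest on single genes. The pathway count was 2 with a threshold of 1.5-fold, which adds TYK2 with 9 and 5 reads, and 0 with the accession version required or with at least 100 reads over both libraries, since IL18RAP was then not among the genes counted. The lymphocyte count was 0 at 3-fold. The trophectoderm count was 2 with all listed genes, which adds CDX2, and 0 with at least 100 reads. The filter on 100 reads was chosen after seeing the data. Depth limits SOCS1, IL18RAP, CDX2 and CYP19A1, which had few reads.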

Other observations

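Of 33 further interferon ligand genes of the annotation, 32 had a matched row, 22 were listed at 0 in both libraries and 10 were above 0. IFNE, an interferon of the epithelium of the reproductive tract, was the 1 gene of these with a mean of at least 1 RPKM, at 55.9 (replicate 1) and 48.9 RPKM (replicate 2), from 213 and 175 reads. The 10 matched genes of interferon delta, which the pig conceptus is known to secrete together with IFNG, had 1 read in all in replicate 1 and 3 reads in replicate 2. These genes are near-identical copies, so their values are uncertain where reads match several of them.

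Of 14 genes that answer to type I interferons, 10 had a mean of at least 1 RPKM, with a median log2 ratio of 0.08. RSAD2, an antiviral enzyme, was at 1476 and 1546 RPKM, OAS2, which senses double-stranded RNA, at 1945 and 2083 RPKM, and DDX58, the RNA sensor RIG-I, at 2729 and 2315 RPKM. OASL, at 14.2 and 34.0 RPKM from 28 and 63 reads, was higher in replicate 2. It was the 1 gene of the 10 at least 2-fold different on the log2(RPKM + 1) scale, beside 10.7% of all genes. ISG15, a ubiquitin-like protein, was low, at 0.581 and 1.65 RPKM from 3 and 8 reads, and IFIT2 had 5 and 4 reads. MX1 and IRF7 are listed at 0 in both libraries. The MHC class II genes SLA-DRA, at 3446 and 4348 RPKM, and SLA-DQB1, at 982 and 1736 RPKM, were higher in replicate 2, and SLA-DMB, at 114.1 and 99.1 RPKM, was not. Of 9 monocyte and macrophage genes, 7 had a mean of at least 1 RPKM. Of the 7, LYZ, the lysozyme gene, was the 1 gene at least 2-fold different, beside 10.7% of all genes. It was at 111.5 (replicate 1) and 384.4 RPKM (replicate 2). CSF1R, the growth factor receptor of macrophages, had 141 reads in both libraries.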
